A study of Mus musculus with 10 samples.

Results

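Mitochondrial ribosomal protein genes were taken as every gene in the deposited table whose name is Mrpl or Mrps followed by a number and at most 1 letter. The rule found 76 of 34162 gene names, of which 47 are named Mrpl, for the large subunit, and 29 are named Mrps, for the small one. The name does not give the place of every protein: those of Mrps18a and Mrps30 sit in the large subunit, and that of Mrps36 belongs to the 2-oxoglutarate dehydrogenase complex. Their 263 transcript rows were summed by gene name, and all 76 genes passed the expression filter that left 16805 genes for testing. All 76 have a position in the GENCODE M21 annotation of GRCm38, on 17 chromosomes.

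The mitochondrial ribosome is the separate ribosome inside mitochondria that translates the few proteins encoded by mitochondrial DNA, all of them parts of the respiratory chain and ATP synthase. Its RNA comes from the mitochondrial genome, whereas its proteins are encoded in the nucleus, made in the cytosol and imported. A small subunit reads the messenger RNA and a large subunit forms the peptide bond. Some of its proteins have bacterial relatives and others are found only in mitochondria. Myc, a transcription factor, is known for raising genes of ribosome and mitochondrial biogenesis in many cell types.

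The libraries were made from melanoma cells of mice of strain C57BL/6:SV129, sorted by flow cytometry from fresh tumours. Primary tumours came from skin and metastatic tumours from lymph nodes. Cells called c-Myc-high were GFP-positive and cells called c-Myc-low were GFP-negative, and all groups share the strain. The 4 groups were primary c-Myc-high (n = 2), primary c-Myc-low (n = 2), metastatic c-Myc-high (n = 3) and metastatic c-Myc-low (n = 3). RNA was amplified before library preparation. The sources used here do not give the alleles that drive the tumours and the GFP reporter, or the age of the mice. Nothing in the labels ties replicates to different animals, and p-values therefore cover the variation between these libraries, which may be technical. In sorted bulk RNA, fewer cells of a type and less RNA per cell cannot be told apart.

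Total estimated counts ranged from 1603012 to 6844328 per library. Values below are counts scaled to library size with TMM factors (CPM) unless RPKM, a level per transcript length, is named. The summed level of 10 melanocyte markers was 654 to 4041 CPM in the primary c-Myc-high libraries, 799 to 1395 in primary c-Myc-low, 3249 to 16464 in metastatic c-Myc-high and 7953 to 22339 in metastatic c-Myc-low. The 15 keratinocyte markers summed to 25135 to 88491 CPM in the primary libraries, above the melanocyte markers in both primary groups, and to 31.2 to 350 in the metastatic ones. The 8 pan-leukocyte markers summed to 33.9 to 150 CPM in primary and 386 to 4722 in metastatic libraries. Replicates 1 and 3 of metastatic c-Myc-high carried 17.2% and 4.55% of their counts on 11 salivary gland genes, against at most 0.0617% in the other libraries. Mean Myc was 550 CPM ± 631 (SD, n = 2) and 240 ± 110 (n = 2) in the c-Myc-high and c-Myc-low classes of primary tumours, and 216 ± 61.5 (n = 3) and 216 ± 108 (n = 3) in those of metastatic tumours. The classes overlapped at both sites. Of the 10 libraries 6, including each of the 5 c-Myc-high ones, correlated best with a library of another group over all tested genes. The highest of all 45 correlations (0.927) was between metastatic c-Myc-high replicate 2 and metastatic c-Myc-low replicate 3, and the counts of calls and medians of the comparisons of single groups that use the former are also given without it.

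Because the cells were sorted on a c-Myc label, the promoters of these genes were searched for the Myc and MAX E-box and for motifs of other factors known to bind promoters of mitochondrial genes. RefSeq promoters (GRCm38.p6, 250 bases before to 50 after the start) matched 67 of the 76 genes. Both strands were searched for 4 motifs that do not contain each other: CACGTG (E-box), CCGGAAG (ETS family, including GABP), AAGATGGC (YY1) and the NRF1 palindrome. The E-box was in 5 of 67 genes (7.46%), against 8.09% of all 27025 genes with a promoter. The ETS motif was in 24 (35.8%, against 9.93%), the YY1 motif in 12 (17.9%, against 3.19%) and the NRF1 motif in 3 (4.48%, against 1.07%). For the 17492 protein-coding genes with a promoter the shares were 8.91% (E-box), 12.9% (ETS), 3.57% (YY1) and 1.47% (NRF1). Among 65 cytosolic ribosomal protein genes with a promoter the ETS motif was as frequent (40%), and the YY1 motif was in 9.23%. The 5 genes with an E-box, named after their values were seen, were Mrpl2, Mrpl20, Mrpl36, Mrpl37 and Mrps18c. Below are 3 windows that show the E-box and the ETS motif, and of their genes Mrpl20 and Mrps27 are described later. Capitals mark the motif, the sequence is 5′ to 3′ on the gene's strand, and in Mrps27 the motif lies on the opposite strand.
Mrpl20, chr4:155802830-155802865, plus strand, E-box: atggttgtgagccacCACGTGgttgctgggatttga
Mrps27, chr13:99344723-99344759, plus strand, ETS motif: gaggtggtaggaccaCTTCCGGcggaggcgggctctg
Mrpl43, chr19:45006477-45006513, minus strand, ETS motif: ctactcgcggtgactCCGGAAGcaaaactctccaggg
The E-box of Mrpl20 begins 33 bases before the start, and the ETS motifs of Mrps27 and Mrpl43 begin 48 and 56 bases before it. A match describes these letters only and is not a measured binding site.

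The genes were present at moderate levels in every group. Summed over all 76 genes, the level was 3349 and 1787 CPM in the 2 primary c-Myc-high libraries and 1429 and 1452 in the 2 primary c-Myc-low libraries. It was 1134, 1890 and 2460 CPM in metastatic c-Myc-high and 1238, 909 and 1377 in metastatic c-Myc-low. The primary c-Myc-high libraries lay above the primary c-Myc-low ones, and the metastatic classes overlapped. Group means were 2568 CPM ± 1105 (SD, n = 2), 1440 ± 16.1 (n = 2), 1828 ± 665 (n = 3) and 1175 ± 240 (n = 3) in the same order. Without TMM scaling they were 1972 ± 1099, 1623 ± 152, 1639 ± 616 and 1467 ± 226, and the primary classes then overlapped. The higher sums of the c-Myc-high classes came with a lower or similar median gene: it was at 9.99 CPM ± 1.57 (n = 2) in primary c-Myc-high and 15.2 ± 0.608 (n = 2) in primary c-Myc-low. In the metastatic groups the median gene was at 12.8 CPM ± 5.35 (n = 3) and 12.6 ± 2.75 (n = 3).

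**Figure D1:**
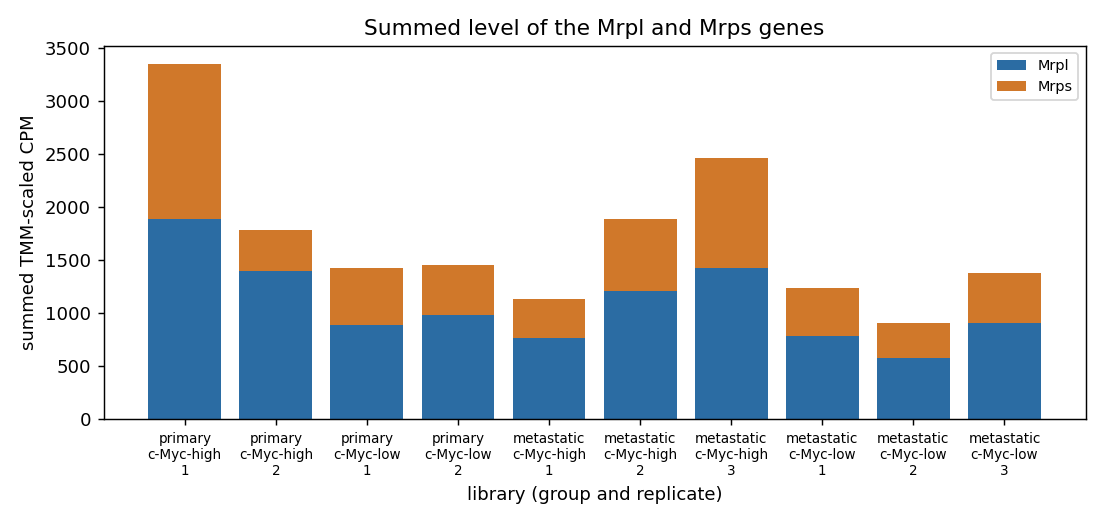
Stacked bars give the summed TMM-scaled CPM of the 47 Mrpl and 29 Mrps genes in each of the 10 libraries. The c-Myc-low libraries sit between 909 and 1452, and the c-Myc-high libraries range from 1134 to 3349.

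Both the Mrpl and the Mrps genes contributed to the sums, in proportions that varied more among the c-Myc-high libraries. For the Mrpl genes the mean sum was 1639 CPM ± 344 (SD, n = 2) among primary c-Myc-high libraries, 935 ± 61 (n = 2) in primary c-Myc-low, 1134 ± 333 (n = 3) in metastatic c-Myc-high and 758 ± 166 (n = 3) in metastatic c-Myc-low. The Mrps sums were 929 ± 761, 506 ± 44.9, 694 ± 336 and 416 ± 75.2 CPM. The ratio of the Mrpl to the Mrps sum was 1.28 and 3.57 in the 2 primary c-Myc-high libraries and 1.66 and 2.06 in primary c-Myc-low. It was 2.12, 1.77 and 1.38 in metastatic c-Myc-high and 1.76, 1.75 and 1.93 in metastatic c-Myc-low. The lowest and the highest ratio were both in primary c-Myc-high.

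In the c-Myc-high libraries a few genes held much of the family's signal while others were at or near 0 counts. The 5 members with the most CPM held 44.9% and 50% of the family's sum in primary c-Myc-high, and 22%, 22.5% and 50.9% in metastatic c-Myc-high, against 17.5% to 22% in the 5 c-Myc-low libraries. Those 5 genes differed between libraries: they were Mrps24, Mrpl24, Mrps12, Mrpl55 and Mrps17 in primary c-Myc-high replicate 1, but Mrpl49, Mrpl24, Mrps18b, Mrpl10 and Mrpl53 in replicate 2. In metastatic c-Myc-high replicate 3 they were Mrps6, Mrpl24, Mrps18b, Mrpl12 and Mrpl53. Mrpl10 is named after its values were seen. Members with fewer than 10 counts numbered 21 and 38 in primary c-Myc-high, and 11, 0 and 25 in metastatic c-Myc-high. They numbered 0 and 2 in primary c-Myc-low, and 0, 1 and 1 in metastatic c-Myc-low. Altogether 73 genes had 10 or more counts in every c-Myc-low library and 19 did in every c-Myc-high library, while 15 were at a rounded count of 0 in at least 1 c-Myc-high library and 0 were so in the c-Myc-low libraries.

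At equal depth the c-Myc-high libraries other than metastatic replicate 2 still held fewer of the genes. For a draw of 1600000 counts from each library, the expected number of members with at least 1 count was 64.6 and 71.0 for primary c-Myc-high and 73.5, 76 and 69.9 in metastatic c-Myc-high, against 75.7 to 76 in the c-Myc-low libraries. The same libraries had more empty genes across the whole table, with 19.7% and 25.6% of all tested genes at 0 in primary c-Myc-high and 10.9%, 6.58% and 19.9% in metastatic c-Myc-high. In the c-Myc-low libraries the share was 2.3% to 7.78%. The sources used here do not give the amount of RNA that went into each amplification, and its part in these values was not tested.

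**Figure D2:**
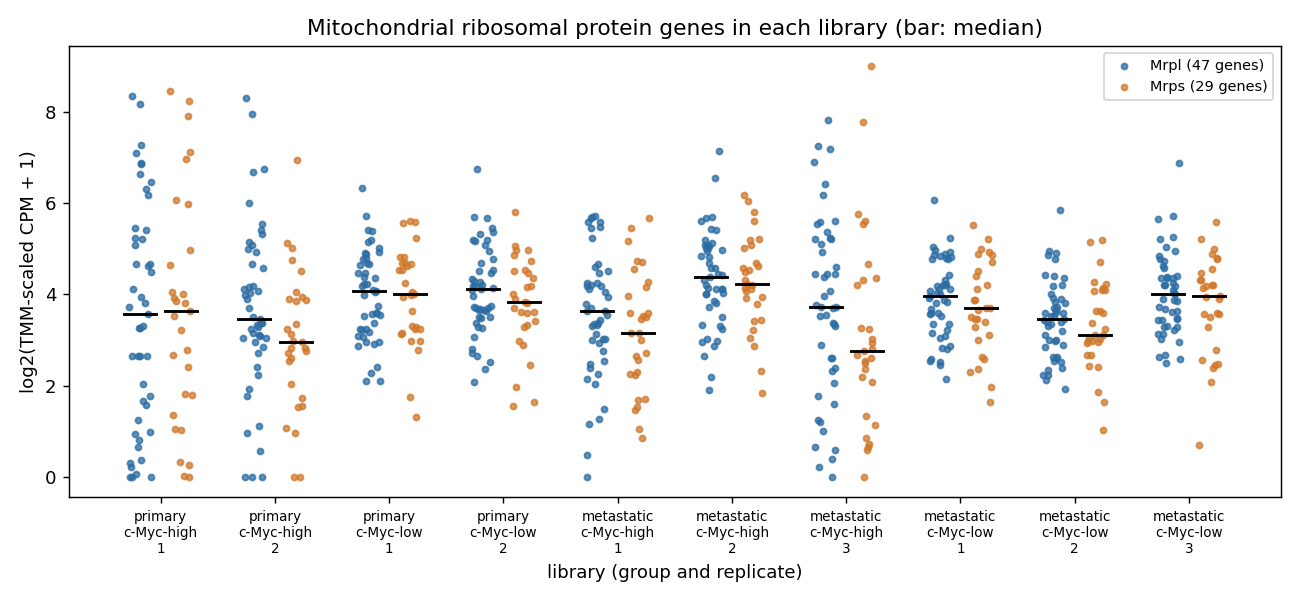
Each point is 1 gene, plotted as log2(TMM-scaled CPM + 1) in each library, with a bar at the median of the 47 Mrpl and of the 29 Mrps genes. Points of the c-Myc-low libraries cluster, while primary c-Myc-high libraries and metastatic c-Myc-high replicate 3 spread from 0 to above 300 CPM.

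Single genes show the same spread. Mrpl49, a large subunit protein, was at 0 and 315 CPM in the 2 primary c-Myc-high libraries and at 40.9 and 22.2 in primary c-Myc-low. It was at 17.5, 48.2 and 47.6 CPM in metastatic c-Myc-high and at 26.3, 26.6 and 32 in metastatic c-Myc-low. Mrpl55, also of the large subunit, took the opposite values in primary c-Myc-high, 287 and 0 CPM, with 34.5 and 21.3 in primary c-Myc-low. Thus the 2 primary c-Myc-high libraries lay on opposite sides of every other library for both genes. Mrps24, whose bacterial relative lies at the messenger RNA entry of the small subunit, was at 352 and 6.05 CPM in primary c-Myc-high and at 8.75 and 21.1 in primary c-Myc-low. Its 3 metastatic c-Myc-high values were 25.2, 55.3 and 6.64 CPM, and its 3 metastatic c-Myc-low values 13.6, 6.88 and 28.5.

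The SD of log2(CPM + 1) between replicates, taken gene by gene, had a median over the 76 genes of 1.44 in primary c-Myc-high and 0.29 in primary c-Myc-low. In the metastatic groups the medians were 1.29 for c-Myc-high and 0.41 for c-Myc-low. The SD was larger in c-Myc-high for 67 of 76 genes in primary tumours (88.2%, against 71.6% of all tested genes) and for 69 of 76 in metastatic tumours (90.8%, against 81.5%). It was larger at both sites for 60 (78.9%, against 59.4%). Medians over all tested genes were 0.99, 0.37, 1.11 and 0.51 in the order of groups used above, so the wider spread of the c-Myc-high libraries was a feature of the whole table. Over the 13984 genes within the members' range of mean CPM (1.93 to 141) they were 1.10, 0.37, 1.16 and 0.50. The genes are not independent, since 1 library moves many of them, and no test was made of these counts.

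**Figure D3:**
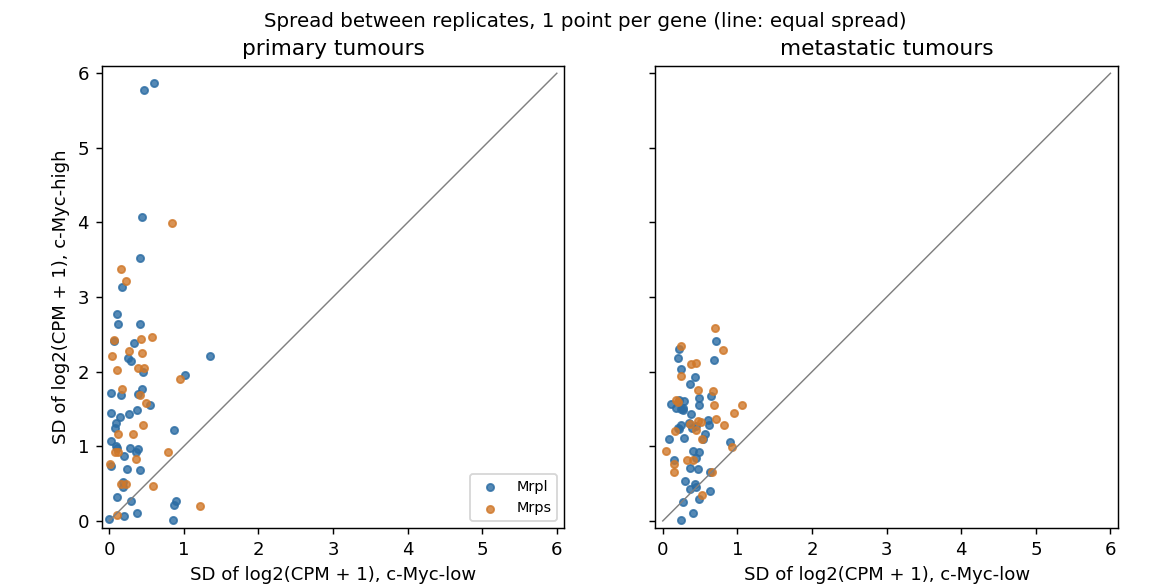
Each point is 1 gene, with the SD of log2(CPM + 1) between the c-Myc-low replicates on the x axis and between the c-Myc-high replicates on the y axis, for primary tumours (left, 2 libraries a group) and metastatic tumours (right, 3 libraries a group). In primary tumours 67 of 76 points lie above the line of equal spread, and in metastatic tumours 69 do.

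The order of the 76 genes was alike in the c-Myc-low libraries and unlike in the c-Myc-high ones. Spearman's rho over the 76 genes was 0.698 to 0.877 (median 0.775) in the 10 pairs of c-Myc-low libraries, across both sites. In the 10 pairs of c-Myc-high libraries it was -0.007 to 0.506 (median 0.231), and in the 25 pairs with 1 library of each class 0.218 to 0.688 (median 0.389). Pairs share libraries, and the genes share each library's depth, so these are descriptions. Over all tested genes Pearson's r on the log2(CPM + 1) scale had a median of 0.676 among c-Myc-low pairs (0.567 to 0.922) and 0.571 among c-Myc-high pairs (0.459 to 0.689). For the family on the same scale the medians were 0.798 and 0.272.

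Per transcript length, the highest mean levels over the 10 libraries were those of Mrps12, a relative of a bacterial protein of the decoding site, at 24.1 RPKM (range 0.765 to 173) and of Mrpl24, a large subunit protein with a bacterial relative, at 18.3 RPKM (5.8 to 54.6). Mrpl33 followed at 18.2 RPKM (2.93 to 49), Mrps24 at 14.8 (0.439 to 103) and Mrps21 at 13.3 (0.86 to 64.1). These ranges overlap, so the order among them does not exceed the spread between libraries. The mean of Mrps12 rests on primary c-Myc-high replicate 1, where it reached 173 RPKM, whereas its mean was 8.87 RPKM ± 4.54 (SD, n = 3) in metastatic c-Myc-low. Mrpl24 was more even, at 14.3 RPKM ± 5.15 (n = 2) in primary c-Myc-low, 15 ± 2.79 (n = 3) in metastatic c-Myc-low, 32.4 ± 31.4 (n = 2) in primary c-Myc-high and 14.8 ± 9.41 (n = 3) in metastatic c-Myc-high. The lowest means were those of Mrps36, at 0.566 RPKM (0.0592 to 1.34), and Mrpl45, at 0.795 (0 to 3.11). The protein of Mrpl45 tethers the ribosome to the inner membrane.

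The first comparison, metastatic against primary c-Myc-high cells, is the one named in the study's design. In it the family held genes with large differences in both directions, and none passed the test. At an adjusted p under 0.05 edgeR's quasi-likelihood test with Benjamini-Hochberg adjustment called 0 of 76 genes, where it called 3.97% of all tested genes, 1.65% higher and 2.31% lower. At an unadjusted p under 0.05 there were 8 higher (10.5%, against 16.3% of all genes) and 6 lower (7.89%, against 9.96%). By DESeq2 11 were called (14.5%, against 19.3% of all genes) and by limma-voom 0 (against 0.988%). With limma-trend on RPKM 0 or 1 were called, depending on the pseudocount (0% or 1.32%, against 0.446% or 1.65%). The groups did not overlap for 10 genes higher in metastatic cells (13.2%, against 17.4% of all genes) and for 6 lower (7.89%, against 10.5%). The median log2 fold change was 0.19 for the family and 0.38 for all tested genes, with family values from -3.53 to 6.31. The family's median was -0.42 without metastatic c-Myc-high replicate 2 and 0.81 without primary c-Myc-high replicate 2. Leaving out primary c-Myc-high replicate 2 brought the count of called genes to 9 (11.8%, against 6.69% of all genes), leaving out metastatic c-Myc-high replicate 3 to 2 (2.63%, against 6.98%), and leaving out primary c-Myc-high replicate 1 to 1 (1.32%, against 2.35%). It stayed at 0 without metastatic c-Myc-high replicate 1 (against 1.84% of all genes) or replicate 2 (against 2.56%).

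Among the genes with higher values in metastatic c-Myc-high cells was Mrps6 (chr16:92058270-92112227), a small subunit protein with a bacterial relative. Its level was 0.249 and 5.55 CPM in primary c-Myc-high, from 1 and 6 counts, and 50.1, 23.6 and 512 CPM in metastatic c-Myc-high. The 3 metastatic libraries lay above both primary ones, with replicate 3 far above the others. The log2 fold change was 6.31 (SE 1.77) with an adjusted p of 0.0662 by edgeR's quasi-likelihood test. Without metastatic c-Myc-high replicate 3 it was 3.88. Of its 1533 exonic bases 159 are shared with Slc5a3 on the same strand and 305 with Gm49711, so its counts could hold reads of those genes. Slc5a3 was at 76 and 5.71 CPM in primary c-Myc-high and at 194, 21.9 and 75.6 in metastatic c-Myc-high. The part of Slc5a3 and Gm49711 in the counts of Mrps6 was not tested.

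Mrps25 (chr6:92169525-92184033), a small subunit protein found only in mitochondrial ribosomes, was at 2.52 and 0 CPM in primary c-Myc-high and at 3.74, 47.6 and 48 in metastatic c-Myc-high. Metastatic replicate 1 came close to the primary libraries, and the other two were at the level of the c-Myc-low libraries (26.3 to 48 CPM). The log2 fold change was 4.47 (SE 1.37), with an adjusted p of 0.0837 in the edgeR fit. Most of its exonic bases, 4590 of 6576, are shared with Nr2c2 on the opposite strand, and the sources used here do not say whether counting used strand. Mrpl45 (chr11:97315716-97329920) was at 0.973 and 0 CPM in primary c-Myc-high, from 4 and 0 counts, and at 11.5, 33.2 and 3.15 in metastatic c-Myc-high. Its log2 fold change was 4.64 (SE 1.54, edgeR adjusted p 0.0983) and rests on those few primary counts. Mrps27 (chr13:99344786-99415562), a small subunit protein with pentatricopeptide repeats, was at 0 and 1.1 CPM in primary c-Myc-high, from 0 and 1 counts, and at 25.7, 12.9 and 1.53 in metastatic c-Myc-high. With so few counts in 1 group its fitted fold change is not given, and its edgeR adjusted p was 0.103.

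Other genes had lower values in metastatic c-Myc-high cells, and each of the 4 below was highest in primary c-Myc-high replicate 1. Mrps12 (chr7:28739641-28741820) was at 302 and 26.2 CPM in primary c-Myc-high and at 22.6, 21.4 and 3.59 in metastatic c-Myc-high. Its log2 fold change was -3.36 (SE 1.04, edgeR adjusted p 0.0849), and the lower primary library was close to the highest metastatic one. Mrpl40 (chr16:18872018-18876862), a large subunit protein, was at 117 and 6.74 CPM in primary c-Myc-high and at 6.99, 8.43 and 0.566 in metastatic c-Myc-high. The groups overlapped, and the log2 fold change was -3.53 (SE 1.24, edgeR adjusted p 0.113). Mrps17, with 240 and 7.75 CPM in primary c-Myc-high and 9.97, 36.3 and 5.41 in metastatic c-Myc-high, had a log2 fold change of -2.83 (SE 1.14, edgeR adjusted p 0.152). Without primary c-Myc-high replicate 1 that value turned to 0.98. Mrpl20, one of the genes with an E-box shown above, was at 136 and 32.8 CPM in primary c-Myc-high and at 17.3, 27.4 and 15.9 in metastatic c-Myc-high, a log2 fold change of -2.06 (SE 0.83, edgeR adjusted p 0.149). Without the same library the value was -0.94 for Mrps12, -0.52 for Mrpl40 and -0.90 for Mrpl20.

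**Figure D4:**
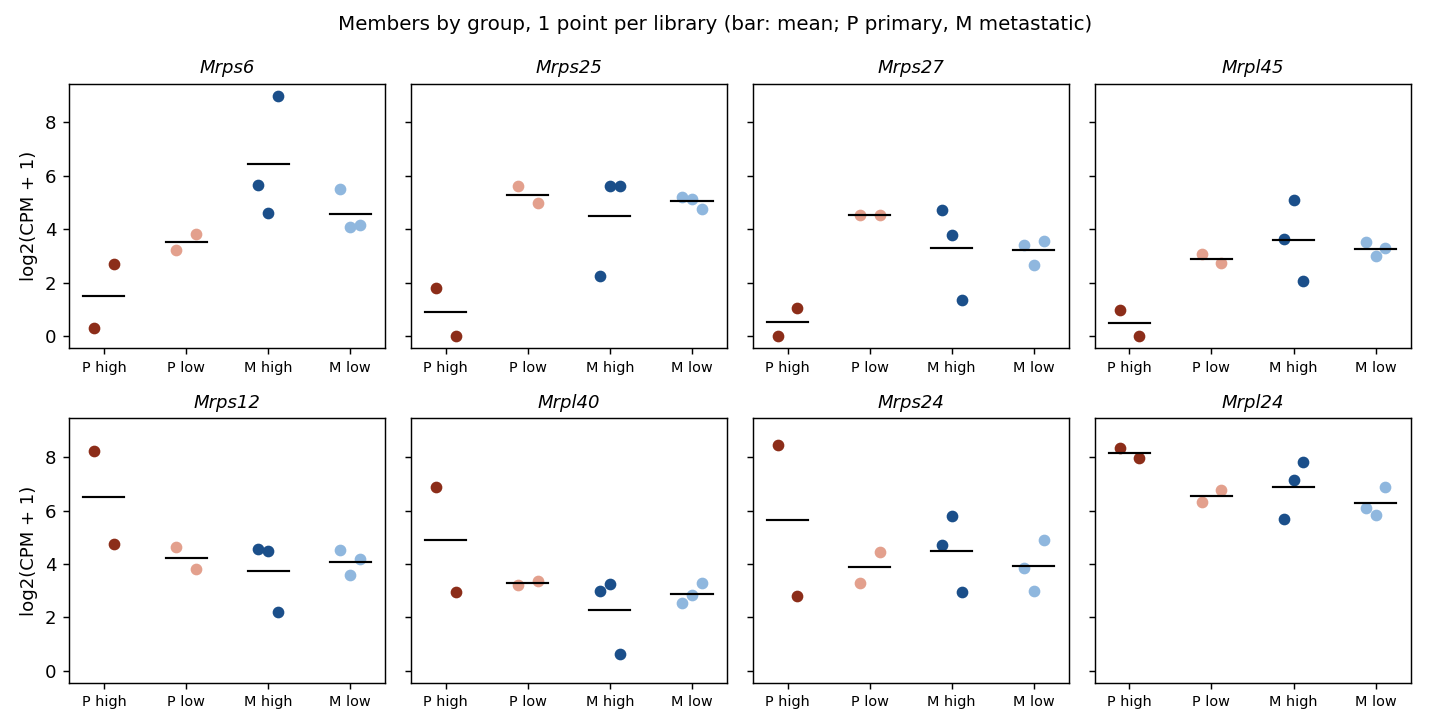
Each point is 1 library, plotted as log2(CPM + 1) for 8 genes by group (P primary, M metastatic; high and low are the c-Myc classes), with a bar at the group mean. Mrps25, Mrps27 and Mrpl45 sit lowest in both primary c-Myc-high libraries, while Mrps12, Mrpl40 and Mrps24 are highest in 1 primary c-Myc-high library.

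In c-Myc-low cells the same comparison of sites gave small differences. No gene was called (0 of 76, against 2.11% of all tested genes, 0.375% higher and 1.74% lower, by edgeR's quasi-likelihood test). At an unadjusted p under 0.05 there were 0 higher (against 9.12% of all genes) and 0 lower (against 6.03%). DESeq2 and limma-trend called 0 (against 10% of all genes by DESeq2, and 1.95% or 3.27% by limma-trend). By limma-voom 2 were called, Mrpl50 and Mrps27, both lower in metastatic cells (2.63%, against 23.5% of all genes). Log2 fold changes ran from -1.58 to 1.26 with a median of -0.24, against 0.10 over all tested genes, and 22 of 76 were above 0 (28.9%, against 53.8% of all genes). Groups did not overlap for 17 genes lower in metastatic cells (22.4%, against 20.1% of all genes) and for 3 higher (3.95%, against 25.2%). The 3 higher were Mrpl22, Mrps6 and Mrps9, the last named after its values were seen. Of the alternatives run, only the RPKM scale turned the median of the family, to 0.05 or 0.08.

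Mrps22, a small subunit protein found only in mitochondrial ribosomes, was at 8.48 and 19.5 CPM in primary c-Myc-low and at 4.16, 5.42 and 4.46 in metastatic c-Myc-low. Its log2 fold change was -1.58 (SE 1.16) with an edgeR adjusted p of 0.691, the lowest of the family in this comparison. Mrps27 was at 22.2 and 22 CPM in primary c-Myc-low and at 9.53, 5.41 and 10.9 in metastatic c-Myc-low, with a log2 fold change of -1.35 (SE 1.21, edgeR adjusted p 0.835). Neither gene's groups overlapped. Mrpl36, a large subunit protein with a bacterial relative, was at 41.5 and 50.1 CPM in primary and at 32.1, 17.2 and 25.6 in metastatic c-Myc-low cells. Mrps6 went the other way, with 8.43 and 13.3 CPM in primary and 45, 16.1 and 16.7 in metastatic c-Myc-low cells, a log2 fold change of 1.26 (SE 1.32, edgeR adjusted p 0.912).

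The classes sorted on GFP were compared next. In primary tumours no gene passed the test, and 36 of 76 were above 0 (47.4%, against 44.7% of all genes). The edgeR quasi-likelihood test called 0 of 76 genes and 0 of all tested genes (0%). At an unadjusted p under 0.05 there were 2 higher (2.63%, against 4.29%) and 7 lower (9.21%, against 7.33%). DESeq2 called 3, all lower (Mrpl50, Mrps25 and Mrps27, 3.95%, against 2.37% of all genes). Both limma fits called 0 (against 0.0119% of all genes by limma-voom, and 0.0655% or 0.0298% by limma-trend). Groups did not overlap for 7 genes higher (9.21%, against 11.3%) and 18 lower (23.7%, against 30.2%). The median log2 fold change was -0.14, against -0.12 over all tested genes, and with median-ratio size factors it turned to 0.11 and that of all genes to 0.00.

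Mrps25, at 2.52 and 0 CPM in primary c-Myc-high, was at 48 and 30.3 in primary c-Myc-low, a log2 fold change of -4.72 (SE 1.42). Mrpl50, a large subunit protein found only in mitochondrial ribosomes, was at 3.12 and 0 CPM in c-Myc-high and at 28.9 and 29.9 in c-Myc-low, a log2 fold change of -3.99 (SE 1.30). For both genes the 2 c-Myc-low libraries lay above both c-Myc-high ones, and each had an edgeR adjusted p of 0.419. Mrps27 was at 22.2 and 22 CPM in c-Myc-low and Mrpl41, a large subunit protein, at 12.5 and 10.2, against 0 and 1.1 and 0.16 and 0.933 in c-Myc-high. Their fitted fold changes rest on 1 and 2 counts in all in c-Myc-high and are not given, and their adjusted p was 0.419 by edgeR.

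For Mrps12 and Mrps24 the higher values in primary c-Myc-high cells were led by replicate 1. Mrps12, at 23.6 and 13 CPM in c-Myc-low, had a log2 fold change of 3.16 (SE 1.2) and Mrps24 one of 3.59 (SE 1.55), each with an edgeR adjusted p of 0.419. Without that library the value was 0.65 for Mrps12 and turned to -1.27 for Mrps24. Of the 1466 exonic bases of Mrps24, 226 are shared with Urgcp on the same strand. Urgcp was at 58.3 and 4.67 CPM in primary c-Myc-high and at 12.6 and 7.2 in primary c-Myc-low. Its part in the counts of Mrps24 was not tested. Mrpl24 was high in both primary c-Myc-high libraries, at 324 and 248 CPM against 79.6 and 107 in c-Myc-low, with no overlap.

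In metastatic tumours the class comparison called 0 of 76 genes and 0 of all tested genes (0%) by edgeR's quasi-likelihood test, with 3 genes higher (3.95%, against 3.05%) and 0 lower at an unadjusted p under 0.05. DESeq2 and both limma fits also called 0 of 76 (against 0.512% of all genes by DESeq2 and at most 0.0119% by limma). Groups did not overlap for 4 genes higher in c-Myc-high (5.26%, against 3.33%) and for 0 lower (against 7.74%). The 4 were Mrpl11, Mrpl32, Mrpl54 and Mrps18c, of which Mrpl32 is named after its values were seen. The median log2 fold change was 0.26, against 0.00 over all tested genes, and 51 of 76 genes were above 0 (67.1%, against 49.5%). On the RPKM scale the median was -0.38 or -0.73, depending on the pseudocount. Without metastatic c-Myc-high replicate 2 it was 0.05, with 0 of 76 genes called, against 0.199% of all genes.

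Mrpl12, a protein of the large subunit stalk that also binds the mitochondrial RNA polymerase, was at 7.72, 16.5 and 153 CPM in metastatic c-Myc-high and at 16.4, 6.37 and 6.79 in metastatic c-Myc-low. The groups overlapped, and the log2 fold change of 2.58 (SE 1.06, edgeR adjusted p 1) was led by replicate 3, without which it was 0.30. Mrps18b was at 14.7, 6.3 and 218 CPM in c-Myc-high and at 7.7, 6.61 and 17.6 in c-Myc-low, a log2 fold change of 2.90 (SE 1.25, edgeR adjusted p 1). It was -0.01 without replicate 3. Mrps6, at 50.1, 23.6 and 512 CPM against 45, 16.1 and 16.7, had a log2 fold change of 2.91 (SE 1.2, edgeR adjusted p 1). It was -0.18 without replicates 1 and 3, the libraries rich in salivary gland genes, which leaves only replicate 2 in metastatic c-Myc-high. Mrpl54, at 12, 33 and 19.9 CPM against 7.56, 4.08 and 8.28, did not overlap and had a log2 fold change of 1.71 (SE 0.86, edgeR adjusted p 1).

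**Figure D5:**
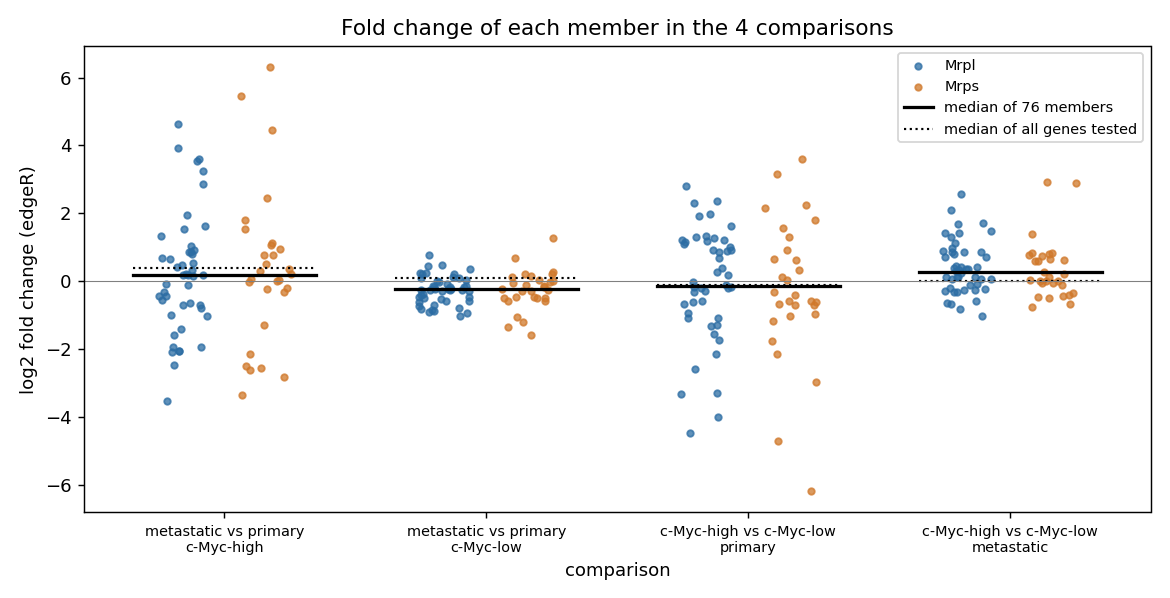
Each point is the edgeR log2 fold change of 1 gene in 1 of the 4 comparisons, with solid lines at the median of the 76 genes and dotted lines at the median of all tested genes. The spread is widest where primary c-Myc-high cells are compared (-3.53 to 6.31 and -4.72 to 3.59, leaving out Mrpl22, Mrpl41 and Mrps27, which had 3 or fewer counts in that group) and narrowest between sites in c-Myc-low cells (-1.58 to 1.26).

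Averaged over both sites, c-Myc-high against c-Myc-low again called 0 of 76 genes and 0% of all tested genes by edgeR's quasi-likelihood test, with 4 higher (5.26%, against 5.34%) and 6 lower (7.89%, against 7.52%) at an unadjusted p under 0.05. DESeq2 and both limma fits called 0 of 76 (against 2.98% of all genes by DESeq2 and at most 0.0119% by limma). The median log2 fold change was 0.28, against -0.11 over all tested genes, and 44 of 76 genes were above 0 (57.9%, against 46.3%). The median was -0.22 by limma-voom and -0.40 or -0.96 on the RPKM scale. It was also -0.26 without primary c-Myc-high replicate 2. The gene values with the lowest p were -2.34 (SE 0.83, edgeR adjusted p 0.309) for Mrps25 and -2.04 (SE 0.77, edgeR adjusted p 0.326) for Mrpl50. Mrps18b had 2.57 (SE 0.99, edgeR adjusted p 0.328) and Mrpl24 had 1.2 (SE 0.52, edgeR adjusted p 0.363). Mrpl24, at 49.9, 141 and 225 CPM in metastatic c-Myc-high and 66.7, 56.7 and 117 in metastatic c-Myc-low, overlapped there.

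Averaged over both classes, metastatic against primary cells gave the only call of the family by edgeR's quasi-likelihood test, 1 gene higher and 0 lower, where 13.8% of all tested genes were called, 8.13% higher and 5.65% lower. At an unadjusted p under 0.05 there were 3 higher (3.95%, against 20.3% of all genes) and 6 lower (7.89%, against 10.1%), and the median log2 fold change was 0.02, against 0.28. Values above 0 were seen for 39 of 76 genes (51.3%, against 57.6%). The called gene was Mrps6, whose log2 fold change was 3.78 (SE 1.09, adjusted p 0.0397). All 6 metastatic libraries (16.1 to 512 CPM) lay above all 4 primary libraries (0.249 to 13.3 CPM). The call was lost by limma-voom (adjusted p 0.0767) and when any 1 of 7 libraries was left out (adjusted p 0.0561 to 0.183). Those were primary c-Myc-high replicate 1, either primary c-Myc-low library, metastatic c-Myc-high replicate 3 and each metastatic c-Myc-low library. Without both libraries rich in salivary gland genes, which leaves only replicate 2 in metastatic c-Myc-high, the log2 fold change was 2.17. The sites also differed in markers of other cells. Each of the 15 keratinocyte markers had at least 1 count in some library of each group, with the sums given above. In metastatic cells that could be a value near 0. For the marker Ivl it was 0.269, 0 and 0 CPM in c-Myc-high and 0.128, 0 and 0 in c-Myc-low. Of the 8 pan-leukocyte markers only Cd53 was at 0 in any group, primary c-Myc-high. Of 11 salivary gland genes 4 were at 0 in primary c-Myc-high, 3 in primary c-Myc-low, 1 in metastatic c-Myc-high and 2 in metastatic c-Myc-low. The part of these cell types in the level of Mrps6 was not tested.

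The difference of the class effect between sites was called for 0 of 76 genes and for 0% of all tested genes by edgeR's quasi-likelihood test, with 6 genes above 0 (7.89%, against 4.74%) and 0 below 0 (against 2.1%) at an unadjusted p under 0.05. DESeq2 and both limma fits called 0 of 76 (against 0.5% of all genes by DESeq2 and 0% by limma). Over the family 44 of 76 values were above 0 (57.9%, against 54.7%). The interaction was 4.75 on the log2 scale for Mrps25 and 5.05 for Mrps6, each with an edgeR adjusted p of 0.724.

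The 3 paralogs named Mrps18 illustrate the range of patterns within 1 group of relatives. The protein of Mrps18a sits in the large subunit despite its name, and those of Mrps18b and Mrps18c in the small subunit. Mrps18a was at 10.5 and 6.05 CPM in primary c-Myc-high, 11.5 and 9.08 in primary c-Myc-low, 4.87, 24.8 and 0 in metastatic c-Myc-high and 12.1, 8.44 and 10.4 in metastatic c-Myc-low. Mrps18c was low, at 0.193 and 5.74 CPM, 1.49 and 1.93, 5.57, 4.01 and 7.16, and 2.12, 1.03 and 3.21 in the same order. Its metastatic c-Myc-high libraries lay above all c-Myc-low libraries, whereas Mrps18b was above 100 CPM in 1 library of each c-Myc-high group (123 and 218 CPM) and under 20 CPM in every c-Myc-low library. Mrps30, another protein of the large subunit despite its name, was at 1.06 and 14 CPM in primary c-Myc-high, 15 and 16.8 in primary c-Myc-low, 5.24, 16.4 and 53.2 in metastatic c-Myc-high and 6.96, 9.35 and 30.8 in metastatic c-Myc-low. Mrps36 varied least of the 76 genes on the log2(CPM + 1) scale (SD 0.51 over 10 libraries), from 0.511 to 2.92 CPM. A low level compresses that scale.

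The other genes of mitochondrial translation were followed in 5 lists. In the 4 comparisons of single groups, edgeR's quasi-likelihood test called 0 of 7 other mitoribosome proteins, 0 of 22 assembly factors, 0 of 14 translation factors, 0 of 17 mitochondrial aminoacyl-tRNA synthetases and 0 of 15 genes of mitochondrial DNA maintenance and transcription. Of all tested genes 3.97% and 2.11% were called between sites in c-Myc-high and then c-Myc-low cells. Between classes 0% of all tested genes were called at each site. At an unadjusted p under 0.05, the comparison of sites in c-Myc-high cells held 0, 4, 4, 2 and 2 higher and 0, 2, 0, 0 and 1 lower members of these lists, against 16.3% of all genes higher and 9.96% lower. In the same comparison of sites in c-Myc-low cells each list had 0 in both directions, against 9.12% and 6.03%. For the classes in primary tumours the counts were 0, 0, 1, 2 and 0 higher and 0, 5, 2, 2 and 2 lower, against 4.29% and 7.33%. In metastatic tumours they were 0, 0, 1, 1 and 0 higher and 0, 0, 1, 0 and 0 lower, against 3.05% and 1.76%. The synthetase list includes Lars2, whose level was far above that of the other synthetases. It was at 19604 and 74937 CPM in primary c-Myc-high and at 3017 and 177 in primary c-Myc-low. Its metastatic values were 4138, 1378 and 65500 CPM in c-Myc-high and 1534, 1023 and 941 in c-Myc-low. Which sequences the Lars2 counts come from was not tested.

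Averaged over classes, 2 genes of the 5 lists were called higher in metastatic cells and 0 lower, against the 13.8% of all tested genes. Rpusd4, a pseudouridine synthase of the large mitochondrial ribosomal RNA, was at 0 in both primary c-Myc-high libraries and at 5.44 and 4.72 CPM in primary c-Myc-low. It was at 2.98, 21.8 and 25.1 CPM in metastatic c-Myc-high and at 2.56, 7.07 and 15.2 in metastatic c-Myc-low (edgeR adjusted p 0.0337). Mtrf1l, a release factor that ends mitochondrial translation, was at 0.0909 and 0.0337 CPM, less than 1 count each, in primary c-Myc-high and at 9.05 and 9.46 in primary c-Myc-low. Its values were 7.78, 2.79 and 4.6 CPM in metastatic c-Myc-high and 14.7, 15.4 and 6.05 in metastatic c-Myc-low (edgeR adjusted p 0.0471). For both genes the primary c-Myc-high libraries lay below every other library, and with counts at or near 0 there the fitted fold changes are not given. Over 22 alternatives the adjusted p ran from 0.00182 to 0.282 for Rpusd4, with 11 calls lost, and from 0.0111 to 0.505 for Mtrf1l, with 17 lost.

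Cytosolic ribosomal protein genes (82 of 86 tested) had 0 calls in each of the 4 comparisons of single groups. Of all tested genes 3.97% and 2.11% were called between sites in c-Myc-high and then c-Myc-low cells, and 0% between classes at each site. The median log2 fold changes of the cytosolic genes were -0.36 and -0.17 between sites in c-Myc-high and then c-Myc-low cells, and 0.54 and 0.59 between classes in primary and metastatic tumours. The corresponding medians of the mitochondrial family were 0.19, -0.24, -0.14 and 0.26, and those of all tested genes 0.38, 0.10, -0.12 and 0.00. The difference between the families was not tested.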

How the data were processed

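RNA was sequenced from 10 libraries of sorted mouse melanoma cells in 4 groups taken from the labels, which give no batch. The authors deposited 1 table of 92214 transcript rows with an estimated count, unscaled between libraries, and an RPKM value, scaled to length and library by the authors, in each library. Bowtie2, limma and mm10 are named, per the submitters' processing notes. How reads were assigned to transcripts, with which annotation and whether by strand, is not given in the sources used here, so reads of overlapping genes (32 of the 76 share exonic bases with another gene, 23 with a protein-coding one) may be split or merged.

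Estimated counts were summed by gene name, rounded, filtered with edgeR's filterByExpr, scaled by TMM and fitted in R 4.3.3 with edgeR 4.0.16. The robust quasi-likelihood fit pooled the spread over all 4 groups and had no covariate (common biological coefficient of variation 0.876). Benjamini-Hochberg adjustment covered all 16805 genes within each of 7 comparisons, and an adjusted p under 0.05 was a call. Adjusted p-values in the text are from this fit unless another tool is named. RPKM values were summed by gene. Alternatives used DESeq2 1.42.0, limma 3.58.1, other scalings and filters, a replicate block and libraries left out. The script was tested on simulated data with less spread than these libraries and the same spread in every group. That test does not show how the fit performs here. Libraries of a group differed beyond counting noise, and each was treated as 1 replicate. That difference does not show that they come from different animals.

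Named genes were called genes, the 5 of each subunit with the lowest p in each comparison, those with the highest and lowest mean RPKM or SD, and a panel of 7. From the other lists they were called genes and those with the lowest p. The members and lists were chosen with earlier results of these data known.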

Additional observations from a re-analysis of the deposited data

How the results depend on the processing

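Precision is limited by 2 or 3 libraries a group, by depth, which left up to 38 of the 76 genes under 10 counts in a library, and by the spread of the c-Myc-high libraries. A p above the threshold does not show equal levels. The numbers of called family genes moved as follows. For sites in c-Myc-high cells 0 became 3 without a filter on low counts (3.95%, against 5.1% of all genes), namely Mrps6, Mrps12 and Mrps25. It became 11 with DESeq2 (14.5%, against 19.3%) and 1 with limma-trend on log2(RPKM + 0.1) (1.32%, against 1.65%). With 1 metastatic library left out it was 0 to 2 (2.63%, against 6.98%, without metastatic c-Myc-high replicate 3). It moved further without primary c-Myc-high replicate 2, which leaves 1 library in that group. For sites in c-Myc-low cells limma-voom gave 2 (2.63%, against 23.5%). For the classes in primary tumours DESeq2 gave 3 (3.95%, against 2.37%). For the mean over classes 1 became 2 without the filter (2.63%, against 11.1%) and 6 with DESeq2 (7.89%, against 23.6%). It became 0 with limma-voom (against 11.3%) and 2 with limma-trend on log2(RPKM + 0.1) (2.63%, against 10.2%). With 1 metastatic library left out it was 0 to 2 (2.63%, against 12.8%, without metastatic c-Myc-high replicate 2). Without primary c-Myc-high replicate 2 this count also moved further. With only the 8 libraries of highest total count, an alternative chosen after seeing the data that leaves primary c-Myc-high with 1 library assumed to vary like the others, the counts were 16 and 15 for sites in c-Myc-high cells and over classes (21.1% and 19.7%, against 16% and 22.8% of all genes). They were 9 and 2 for classes in primary tumours and over sites (11.8% and 2.63%, against 6.18% and 1.46%). The causes were not tested.

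Medians of the family's log2 fold change moved too. For the classes in primary tumours the median was 0.11 with median-ratio size factors, 0.10 with DESeq2, -0.39 with limma-voom, -0.51 and -1.04 on the RPKM scale with pseudocounts of 1 and 0.1, -0.48 in the 8 deepest libraries and -0.48 to 0.11 with 1 library left out. In metastatic tumours it was -0.38 and -0.73 on the RPKM scale. Over both sites it was -0.22 with limma-voom, -0.40 and -0.96 on the RPKM scale, -0.14 in the 8 deepest libraries and -0.26 to 0.44 with 1 library left out. For the difference between sites it was 0.88 in the 8 deepest libraries and -0.07 to 1.08 with 1 left out. For sites it was -0.42 to 0.81 in c-Myc-high cells with 1 library left out, 0.05 and 0.08 on the RPKM scale in c-Myc-low cells, and -0.35 to 0.18 over classes with 1 left out. The value of -0.42 came without metastatic c-Myc-high replicate 2 and that of 0.81 without primary c-Myc-high replicate 2.

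Single genes changed direction in 5 cases, among the values printed with a fold change: Mrps17 to 0.98 (range -4.04 to 0.98 with 1 library left out) and Mrps24 to -1.27 (-1.27 to 4.46) without primary c-Myc-high replicate 1, Mrps18b to -0.01 (-0.01 to 3.60) without metastatic c-Myc-high replicate 3 and to -0.79 without both libraries rich in salivary gland genes, and Mrps6 to -0.18 without those 2 libraries. Leaving out those 2 libraries was a choice made after seeing the data, and it leaves metastatic c-Myc-high with replicate 2 alone. No count of calls is given for that fit. Other counts over all genes moved as well: for sites in c-Myc-high cells 667 calls became 3248 with DESeq2 and 155 when only those 2 groups were fitted. For sites in c-Myc-low cells 355 became 1687 with DESeq2 and 3944 with limma-voom.

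The labels do not say whether libraries of the same replicate number are paired, and the correlations below do not decide it. The correlation of deviations from the group means was -0.331 to 0.155 in the 13 same-numbered pairs (median 0.073), and 2 of 10 libraries correlated best with one of their own number. The 24 differently numbered pairs ranged from -0.513 to 0.585 (median -0.015). Among them, metastatic c-Myc-high replicates 1, 2 and 3 with metastatic c-Myc-low replicates 2, 3 and 1 were at 0.249, 0.585 and 0.384. The other differently numbered pairs of these classes were at -0.235, -0.513 and -0.026. The main fit treated these libraries as unpaired. Deviations within a group sum to 0, so positive and negative values arise together. With the replicate number as a block, 0 family genes were called for the mean over classes, where Mrps6 had a log2 fold change of 2.88 (edgeR adjusted p 0.18), and 0 in the other 6 comparisons. Of all tested genes that fit called 5.74% for the mean over classes. It called 0.893% and 0.833% for sites in c-Myc-high and then c-Myc-low cells, and 0% in the remaining comparisons.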
